A study of Mus musculus with 4 samples.

Results

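ATP-binding cassette (ABC) genes were taken as every gene whose symbol in the platform annotation consists of Abc, a subfamily letter from a to g, a number and, in some cases, a closing letter. This symbol rule found 36 of the 12393 genes with a single symbol on the array, measured by 65 probe sets. They were 7 genes of subfamily A, 8 of B, 8 of C, 3 of D, 1 of E, 3 of F and 6 of G. The RNA came from C2C12 cells, an established mouse myoblast line, kept for 48 hours in semi-solid methyl cellulose, where they enter G0, a quiescent state from which they can return to division. 2 arrays were from cells that had received purified Wnt3A (50 ng/ml), the ligand that starts canonical Wnt signalling through β-catenin, and 2 were from control cells in the same suspension. The cells had been grown in medium with serum, and no group carried a genetic change in the labels. The labels call the 2 arrays of a group biological replicates without saying that separate cultures were used, so p-values measure the spread between these arrays, which may be technical.

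ABC proteins bind and hydrolyse ATP, and most of them use it to carry a substrate across a membrane. Subfamilies A and G move sterols and other lipids, B and C export drugs, conjugates, peptides and bile components, and D proteins serve peroxisomes and lysosomes, while E and F proteins have no membrane domain and act on ribosomes. Human ABCB1, the drug exporter P-glycoprotein, is known as a target of β-catenin and its TCF partners in intestinal tumour cells. The series title asks for transcriptional networks of β-catenin in quiescent myogenic cells, and the comparison of Wnt3A with control cells is the contrast the labels give.

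Signals are log2 values, 1 per probe set and array, and a difference is Wnt3A minus control. Each gene was read from its probe set of highest mean. Genes in the dimmest 25% (mean signal under 2.18, called the limit for dim genes) were not tested. This left 9295 genes, and 24 of these were ABC genes. The remaining 12 ABC genes were under the limit. Pairs of arrays correlated at r = 0.936 to 0.978 over the tested genes, and array medians lay between 4.15 and 4.22. Control replicate 2 stood apart in the 5′ probe set for 18S ribosomal RNA, at 7.57, against 9.98 or more on the other arrays. 3′ probe sets of Gapdh exceeded 5′ ones by 0.09 to 0.31 on all 4 arrays, and those of β-actin did so by 0.70 to 0.93. Axin2, a standard readout of the Wnt pathway, was at 5.13 and 6.14 in Wnt3A cells, against 3.25 and 3.21 in control cells. Of 10 such readouts on the array 7 were tested, and all 7 were higher with Wnt3A. Groups did not overlap in 5 of them, against 14.7% of all tested genes in that direction. Nkd2 (2.62) and Notum (0.83) were next in p. Sp5 (0.06) and Ccnd1 (1.73) had groups that overlapped, and Nkd1, Dkk1 and Rnf43 were under the limit. Of 7 myoblast markers on the array 6 were above the limit, among them Des at 8.10 to 9.08, and Pax7 was not.

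None of the 24 tested ABC genes passed an adjusted p of 0.05 in limma, where 0.0% of all tested genes did. At an unadjusted p under 0.05 there were 3, of which Abca8a and Abca8b were lower and Abca3 was higher with Wnt3A; over all tested genes the share was 5.68%. Groups did not overlap in 9 of the 24 (5 higher, 4 lower with Wnt3A), against 34.4% of all tested genes (14.7% higher, 19.8% lower), so this count lay near the background. Scaling to the spiked hybridization controls called 1 ABC gene, Abca8a, at an adjusted p of 0.05 in limma, where it called 0.527% of all tested genes. A fit with the replicate number as a block called 2, Abca8a and Abca8b, and 0.893% of all tested genes, though the labels do not say that a number marks a shared culture. Both calls of Abca8a rest in part on a Wnt3A signal under the limit for dim genes. Abca8a and Abca8b were also at least 2-fold apart with groups that did not overlap, a description that fitted 3.63% of all tested genes (2.09% in the lower direction). The median difference of the 24 was -0.06, beside -0.02 over all tested genes, and 18 of them differed by less than 0.5, beside 83.8% of all tested genes. The SD between replicates, pooled over both groups, exceeded the size of the difference in 15 of the 24, beside 55.8% of all tested genes. The number of arrays limits the precision: for 13 of the 24 the 95% confidence interval lay within 1 log2 unit on either side of 0, and for the other 11 it did not.

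**Figure D1:**
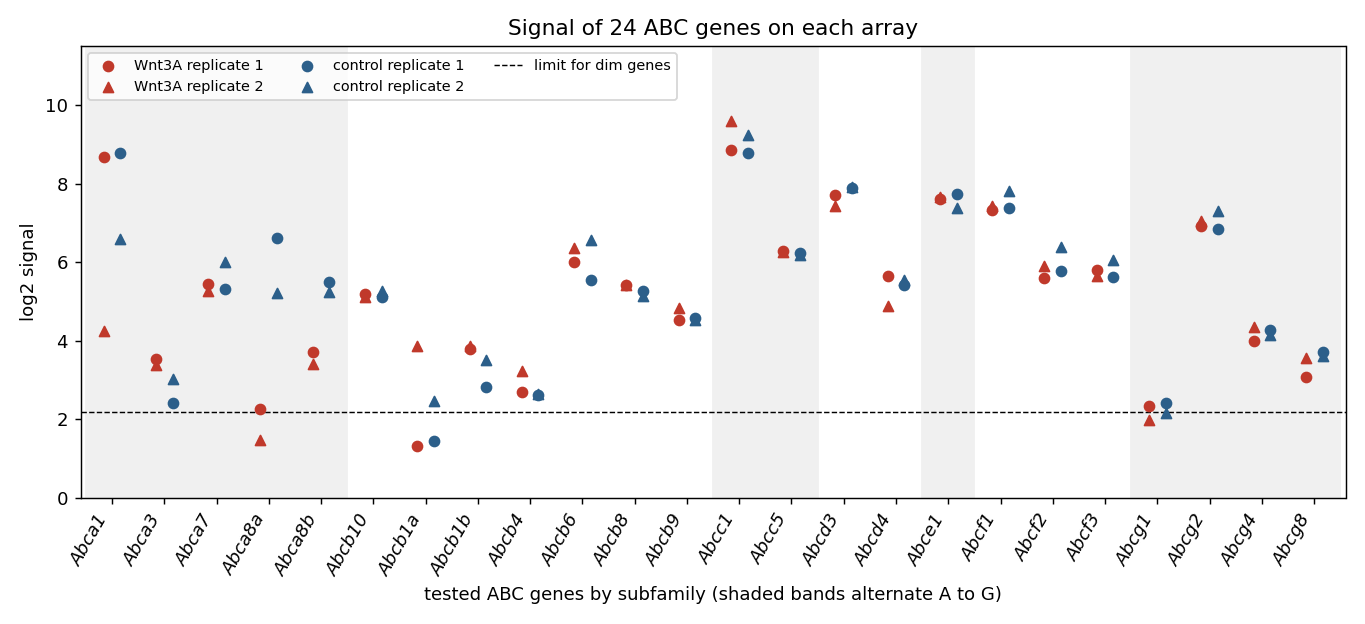
The log2 signal of each of the 24 tested ABC genes is plotted on every array, with Wnt3A arrays in red left of control arrays in blue, circles for replicate 1, triangles for replicate 2 and a dashed line at the limit for dim genes (2.18). Abca8a and Abca8b have both Wnt3A arrays below both control arrays, while Abca1 spans 4.26 to 8.66 on the Wnt3A arrays alone. Heights of different genes come from different probes and are not comparable.

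Subfamily A held the widest differences. Of its 7 genes 5 were tested, 4 of them lower and 1 higher with Wnt3A. Their median of -1.22 was the value of Abca1, whose groups overlapped (SE 1.62), and the median was -0.22 without Wnt3A replicate 2. Abca8a and Abca8b are lipid transporter genes whose human relative, ABCA8, has been linked to cholesterol efflux. Abca8a was at 2.27 and 1.48 in Wnt3A cells, against 6.61 and 5.21 in control cells. Both Wnt3A arrays lay far below both controls, 1 of them just above and 1 under the limit for dim genes. The gene was tested through its control signals alone, since its mean in Wnt3A cells (1.88) was under the limit. No bound on the size of its difference is given, because the limit is a cut on mean signal and not a detection floor. With the signal under the limit raised to it, an alternative chosen after seeing the data, the difference was -3.69, or 12.9-fold lower. The fit to the deposited values gave -4.04 (SE 0.56, 95% interval -5.49 to -2.58, limma's adjusted p = 0.332), which rests on that signal. Abca8b was at 3.70 and 3.41 in Wnt3A cells, against 5.49 and 5.23 in control cells, all 4 above the limit. The difference of Abca8b was -1.80 (SE 0.23, 95% interval -2.41 to -1.19, limma's adjusted p = 0.325), or 3.48-fold lower, with groups that did not overlap. Each of these genes was read by a single probe set. Without any 1 of the arrays the fitted difference ran from -4.73 to -3.34 for Abca8a and from -1.94 to -1.65 for Abca8b.

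Abca8b and Abca8a are next to each other on chromosome 11 in the RefSeq annotation of GRCm38.p6, followed by Abca9, Abca6 and Abca5, which were not analysed here. Their promoter windows are shown because these 2 genes carry the widest non-overlapping differences in the family. Each window runs from 250 bases before to 50 bases after the RefSeq gene start, on the strand of the gene and 5′ to 3′. Capitals mark CTTTG on either strand, the core of the site bound by TCF and LEF factors, and CANNTG, the E-box bound by MyoD and other basic helix-loop-helix factors; the 2 motifs shared no base in any window printed. The Abca8a window is chr11:110095888-110096187 on the minus strand, and that of Abca8b is chr11:109995796-109996095 on the minus strand (GRCm38.p6).
Abca8a: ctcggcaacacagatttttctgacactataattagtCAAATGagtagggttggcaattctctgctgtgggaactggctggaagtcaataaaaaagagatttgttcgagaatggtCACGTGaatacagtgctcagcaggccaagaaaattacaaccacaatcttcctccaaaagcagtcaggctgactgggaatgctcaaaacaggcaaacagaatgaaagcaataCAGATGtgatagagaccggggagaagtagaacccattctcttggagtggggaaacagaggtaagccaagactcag
Abca8b: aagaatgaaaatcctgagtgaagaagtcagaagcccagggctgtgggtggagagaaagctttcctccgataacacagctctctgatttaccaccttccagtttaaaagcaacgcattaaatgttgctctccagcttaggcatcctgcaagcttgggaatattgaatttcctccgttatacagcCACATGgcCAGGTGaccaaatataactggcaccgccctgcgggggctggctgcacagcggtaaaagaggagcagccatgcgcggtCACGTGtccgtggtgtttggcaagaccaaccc
Each window held 3 E-boxes and no CTTTG. In both windows 1 of the E-boxes read CACGTG, at position 115 of the window for Abca8a and at position 269 for Abca8b. Among all 32851 windows, 72.3% held CANNTG, 53.9% CTTTG and 7.15% CACGTG, the last singled out after the sequences were read. CACGTG was in 4 of the 33 windows found for 27 of the 36 ABC genes, those of Abca1, Abca8a, Abca8b and Abcf1. The longer TCF motif CTTTGAT, in 3.73% of all windows, was in none of those 33.

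Most tested markers of fibroblasts, and all of those of fat cells and differentiated muscle, were lower alongside Abca8a and Abca8b. In the fibroblast list 6 of 7 genes on the array were tested, and 4 were lower with Wnt3A with groups that did not overlap, as 19.8% of all tested genes were. Among them were Dcn (-1.18), Pi16 (-0.78) and Fap, which was under the limit on both Wnt3A arrays (1.79 and 1.38, against 2.93 and 3.54 in control cells) and had a difference of -1.05 with these raised to the limit, while Col1a1 (0.54) was higher with groups that overlapped. Log2 signals summed over those 6 genes were 26.9 and 28.7 in Wnt3A cells, against 29.9 and 34.2 in control cells, and Thy1 was under the limit. This sum and those of the other marker lists add log2 values, so ratios between them are not fold changes. All 4 tested genes of the adipocyte list were lower, with Fabp4 (-1.32), Lpl (-4.17) and Pparg (-1.34) lowest in p, and with sums of 17.6 and 13.9 in Wnt3A cells against 26.6 and 22.2 in control cells. The defining fat cell genes Adipoq, Lep and Cidec were under the limit. All 12 differentiated muscle markers were lower as well, with sums of 83.1 and 78.8 in Wnt3A cells against 88.4 and 101.0 in control cells, and Ldb3, Actn2 and Myog had the lowest p. Of 4 tested macrophage markers Cd14 (-1.16) and Fcgr3 (-0.45) were lower at an unadjusted p under 0.05, as 3.22% of all tested genes were. Fcgr3 read 2.28 and 2.06 in Wnt3A cells, with a mean under the limit. Its difference was -0.40 with the lower signal raised to the limit. Csf1r (1.03) and Cd68 (0.28) were higher at an unadjusted p above 0.05, and 6 other macrophage markers, among them Adgre1 and Ptprc, were under the limit. Among 6 tested myoblast markers 2 were higher and 4 lower, and those with groups that did not overlap were Myf5 (1.43), Ncam1 (0.56) and Myod1 (-2.0). Over all tested genes 14.7% were higher and 19.8% lower without overlap. Myod1 read 6.32 and 3.62 in Wnt3A cells against 6.84 and 7.11 in control cells, so the size of its difference rests mainly on Wnt3A replicate 2. Summed myoblast signals were 43.4 and 38.2 in Wnt3A cells, against 41.1 and 42.4 in control cells. The part of these marker genes in the differences of Abca8a and Abca8b was not tested. In bulk RNA, fewer cells of a type and less RNA per cell cannot be told apart.

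Abca1 moves cholesterol and phospholipid out of cells to apolipoprotein A-I. It read 8.66 and 4.26 in Wnt3A cells, against 8.78 and 6.59 in control cells. The groups overlapped, and Wnt3A replicate 2 alone lay below both controls. The difference was -1.22 (SE 1.62, 95% interval -5.46 to 3.02, limma's adjusted p = 0.942), and it was 0.98 without Wnt3A replicate 2 and -3.42 without Wnt3A replicate 1. Its SD between replicates was 3.11 in Wnt3A cells and 1.55 in control cells (n = 2 each), the widest among the tested ABC genes. The other probe sets of Abca1 were under the limit in mean signal, and that with the higher mean of them read 2.41 and 1.78 in Wnt3A cells against 2.66 and 1.71 in control cells.

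Abca3, which loads surfactant lipids into lamellar bodies in lung cells, was at 3.53 and 3.37 in Wnt3A cells, against 2.42 and 3.03 in control cells. Both Wnt3A arrays lay above both controls. The difference was 0.72 (SE 0.26, 95% interval 0.04 to 1.40, limma's adjusted p = 0.867). Leaving out control replicate 1 gave 0.42 and leaving out control replicate 2 gave 1.03, and its unadjusted p was 0.0180 without control replicate 2 and from 0.0750 to 0.188 without each of the others. The other probe sets of Abca3 were under the limit in mean signal. That with the higher mean of them read 2.15 and 2.39 in Wnt3A cells against 1.67 and 1.85 in control cells, and that with the lower mean read 1.53 and 1.37 in Wnt3A cells against 1.58 and 1.29 in control cells. The mean of its probe sets differed by 0.41. Abca7, a phospholipid transporter gene active in phagocytosis, read 5.44 and 5.26 in Wnt3A cells and 5.31 and 6.01 in control cells, with groups that overlapped and a difference of -0.31 (SE 0.31), which was 0.0067 after scaling to hybridization controls. Abca2, abundant in brain, and Abca4, a retinoid flippase of photoreceptors, were under the limit in mean signal.

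Scaling the arrays to their spiked hybridization controls raised the median over all genes by 0.32, beside a median size of 0.221 for the differences of ABC genes. The mean signal of these controls was 7.35 and 6.9999 on Wnt3A replicates 1 and 2, against 7.42 and 7.57 on control replicates 1 and 2. Both Wnt3A arrays thus lay below both controls, with Wnt3A replicate 2 the lowest, and scaling without that array was not tested. Subfamily A kept its negative median under scaling to these controls (-0.90), which was again the value of Abca1 (SE 1.06). Subfamilies B, C and E kept a positive one (0.53, 0.46 and 0.40). The medians of D, F and G, all below 0 in the values as deposited, turned above 0 (0.05, 0.10 and 0.21). Leaving out 1 array also took medians across 0, that of C without Wnt3A replicate 2 (-0.030) and those of E and F without control replicate 2 (-0.092 and 0.0021). Differences of D, F and G genes are given on the deposited values.

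**Figure D2:**
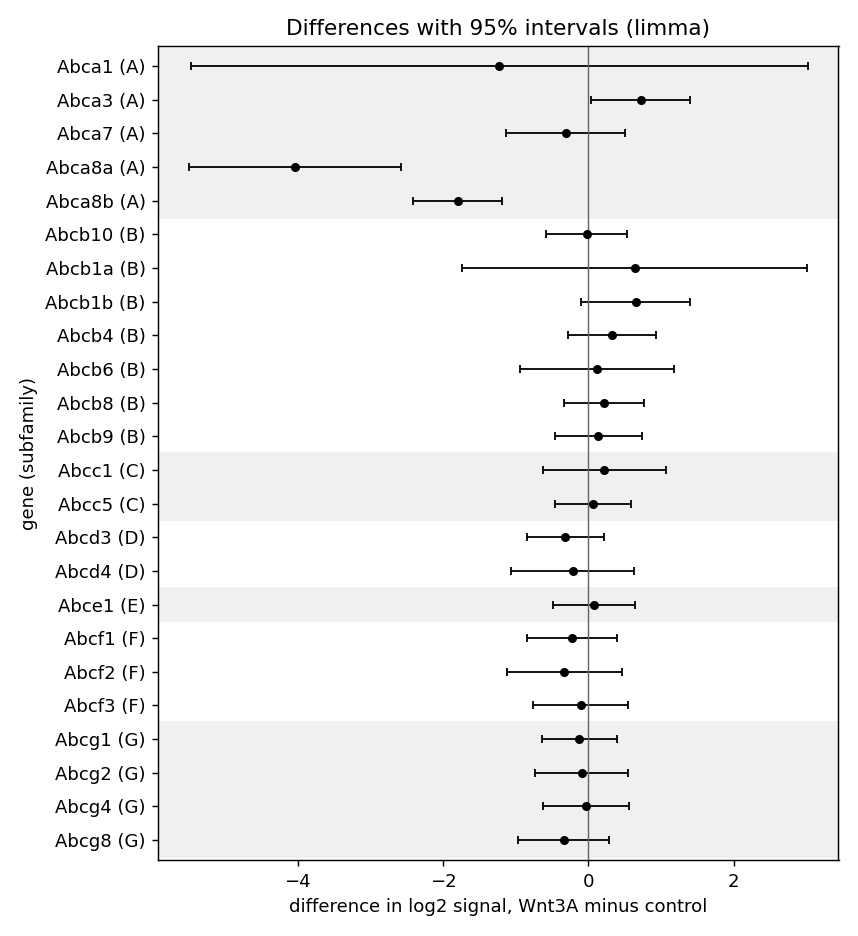
Each point is the difference in log2 signal (Wnt3A minus control) of a tested ABC gene, with its subfamily in brackets, and the bar is its 95% confidence interval in limma (n = 2 arrays per group). The intervals of Abca8a (-5.49 to -2.58, resting in part on a Wnt3A signal under the limit for dim genes), Abca8b (-2.41 to -1.19) and Abca3 (0.04 to 1.40) lie to 1 side of 0, without adjustment for the number of genes. After scaling to hybridization controls all points would lie 0.32 further right, and 9 of the points left of 0 would lie right of it. The spiked control signal was lower on both Wnt3A arrays than on both control arrays and lowest on Wnt3A replicate 2, and scaling without that array was not tested.

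In subfamily B 7 of 8 genes were tested, with 6 higher and 1 lower with Wnt3A and a median of 0.21 that was 0.01 without Wnt3A replicate 2. Abcb1a and Abcb1b are the mouse genes of P-glycoprotein, which exports drugs and other hydrophobic compounds, and Abcb4 encodes the phosphatidylcholine flippase of bile canaliculi. These 3 genes follow each other on chromosome 5 in the annotation of GRCm38.p6. Abcb1b was at 3.78 and 3.88 in Wnt3A cells, against 2.83 and 3.52 in control cells. Both Wnt3A arrays lay above both controls, and the difference was 0.65 (SE 0.29, 95% interval -0.10 to 1.41, limma's adjusted p = 0.917), with a range of 0.31 to 1.0 when single arrays were left out. Abcb4 read 2.69 and 3.22 in Wnt3A cells, against 2.62 and 2.65 in control cells, again without overlap. Its difference of 0.32 (SE 0.23) became 0.057 when Wnt3A replicate 2 was left out and 0.59 when Wnt3A replicate 1 was.

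Abcb1a differed from its neighbour in its spread. It read 1.33 and 3.87 in Wnt3A cells, against 1.44 and 2.48 in control cells, so that 1 array of each group was under the limit and the groups overlapped. The difference was 0.64 (SE 0.91, adjusted p = 0.944 in limma), and it was -0.63 without Wnt3A replicate 2 and 1.91 without Wnt3A replicate 1. The other probe set of Abcb1a read 1.05 and 3.77 in Wnt3A cells against 0.94 and 1.83 in control cells. Wnt3A replicate 2 was thus the highest array on both probe sets. Sequences of Abcb1a and Abcb1b are close, and whether their probes distinguish them was not tested.

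The windows of both P-glycoprotein genes are shown because human ABCB1 is a known β-catenin target. That of Abcb1a is chr5:8566841-8567140 on the plus strand, and that of Abcb1b is chr5:8797897-8798196 on the plus strand (GRCm38.p6), with capitals as above.
Abcb1a: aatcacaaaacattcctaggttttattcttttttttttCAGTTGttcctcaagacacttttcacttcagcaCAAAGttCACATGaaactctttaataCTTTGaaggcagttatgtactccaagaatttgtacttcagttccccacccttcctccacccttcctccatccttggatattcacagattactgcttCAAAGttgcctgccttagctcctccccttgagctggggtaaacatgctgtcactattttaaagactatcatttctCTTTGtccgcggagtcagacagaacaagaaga
Abcb1b: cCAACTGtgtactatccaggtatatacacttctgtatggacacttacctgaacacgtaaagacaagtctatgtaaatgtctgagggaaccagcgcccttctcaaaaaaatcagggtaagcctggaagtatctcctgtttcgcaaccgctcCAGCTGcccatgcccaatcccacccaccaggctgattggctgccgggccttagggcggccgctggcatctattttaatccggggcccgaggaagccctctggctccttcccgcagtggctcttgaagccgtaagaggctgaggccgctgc
The Abcb1a window held CTTTG at 4 positions and 2 E-boxes, while that of Abcb1b held no CTTTG and 2 E-boxes. Their GC contents were 40.3% and 55.0%, beside a median of 52.7% over all windows.

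The other tested B genes differed by 0.21 or less, with SEs of 0.21 to 0.40. Abcb8, a protein of the inner mitochondrial membrane, read 5.42 and 5.43 in Wnt3A cells, against 5.27 and 5.15 in control cells. These groups did not overlap, but its other probe set ran the opposite way, with a difference of -0.29 beside 0.21. Abcb9, a lysosomal peptide transporter gene, differed by 0.14 on its brightest probe set and by -0.25 on the next. Abcb10, which acts in haem synthesis in mitochondria, differed by -0.02 on its brightest probe set and by 0.34 and 0.02 on the others. Abcb6, a porphyrin transporter gene, read 5.99 and 6.36 in Wnt3A cells and 5.55 and 6.56 in control cells, a difference of 0.12 (SE 0.40). Abcb11, the bile salt export pump, was under the limit in mean signal.

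In subfamily C 2 of 8 genes were tested. Abcc1, which exports glutathione conjugates and leukotriene C4, was at 8.87 and 9.59 in Wnt3A cells, against 8.79 and 9.22 in control cells. The groups overlapped, with a difference of 0.22 (SE 0.32, 95% interval -0.62 to 1.07) and of 0.33 on its other probe set; without Wnt3A replicate 2 it was -0.14. Abcc5, an exporter of cyclic nucleotides and other organic anions, read 6.29 and 6.25 in Wnt3A cells, against 6.22 and 6.19 in control cells. Its groups did not overlap, yet the difference was 0.06 (SE 0.20), and all 7 of its probe sets were higher with Wnt3A, by 0.06 to 0.36. Those probe sets share the RNA of the same 4 arrays and are not replicates. Abcc2, Abcc3, Abcc6, Abcc8, Abcc9 and Abcc10 were under the limit on every array. Abcc9 encodes SUR2, the regulatory subunit of ATP-sensitive potassium channels in muscle, and read 1.34 and 1.22 in Wnt3A cells against 0.93 and 1.11 in control cells. The pore genes of these channels, Kcnj11 and Kcnj8, differed by 0.08 and 0.10, with groups that overlapped and, for Kcnj8, signals around the limit.

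**Figure D3:**
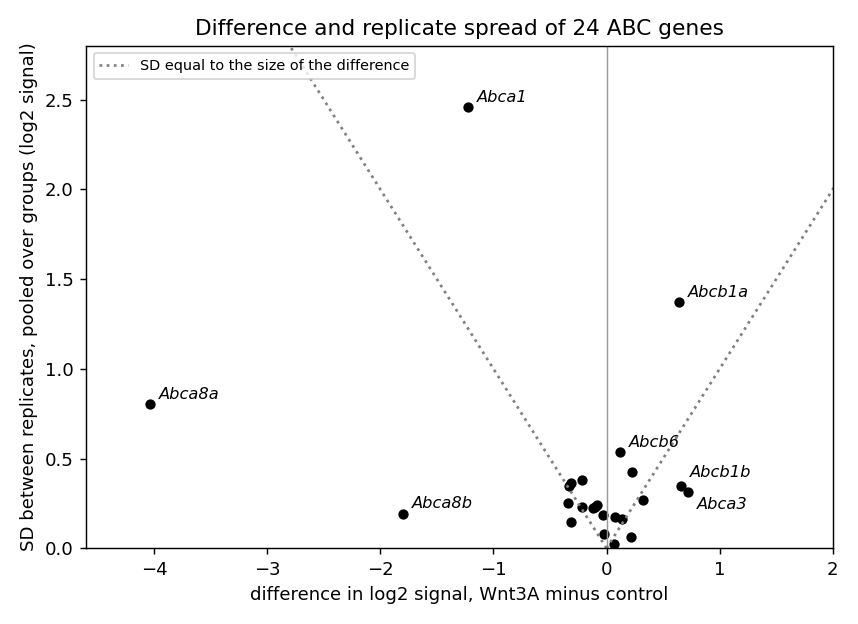
The difference in log2 signal (Wnt3A minus control) of each tested ABC gene is plotted against its SD between replicates, pooled over both groups. Points above the dotted lines have a spread wider than their difference, as 15 of the 24 do, among them Abca1 and Abcb1a, whereas Abca8a and Abca8b lie far below the lines.

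In subfamily D 2 of 3 genes were tested. Abcd3, which imports acyl-CoAs into peroxisomes, was at 7.72 and 7.43 in Wnt3A cells, against 7.88 and 7.91 in control cells. Both Wnt3A arrays lay below both controls, and the difference was -0.32 (SE 0.20, 95% interval -0.85 to 0.22, limma's adjusted p = 0.917), which was 0.0027 after scaling to hybridization controls. Abcd4, which takes part in the release of cobalamin (vitamin B12) from lysosomes, read 5.65 and 4.90 in Wnt3A cells and 5.43 and 5.54 in control cells, a difference of -0.21 (SE 0.32). It was 0.16 without Wnt3A replicate 2 and 0.10 after the same scaling. Abcd2, a peroxisomal carrier of very long-chain fatty acids, was under the limit on every array.

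Genes of subfamilies E and F act on ribosomes, and all 4 were tested. Abce1, which splits ribosomes after termination, was at 7.61 and 7.66 in Wnt3A cells, against 7.73 and 7.39 in control cells, a difference of 0.08 (SE 0.21, 95% interval -0.48 to 0.64). Abcf1, which promotes translation initiation, read 7.33 and 7.42 in Wnt3A cells, against 7.37 and 7.82 in control cells, a difference of -0.22 (SE 0.24). Groups overlapped in both genes. Abcf2 read 5.59 and 5.91 in Wnt3A cells and 5.77 and 6.39 in control cells, with groups that overlapped. Abcf3, a relative of yeast Gcn20, read 5.79 and 5.66 in Wnt3A cells, against 5.61 and 6.05 in control cells. None of the 4 genes had groups that lay apart. Differences of Abcf2 and Abcf3 were -0.33 (SE 0.30) and -0.11 (SE 0.25), and those of Abcf1 and Abcf3 were above 0 after scaling to hybridization controls (0.10 and 0.21). Probe sets of all 4 genes disagreed in sign, from -0.44 to 0.35 over the 5 probe sets of Abcf1 above the limit and at -0.33 and 0.33 for the pair of Abcf2.

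**Figure D4:**
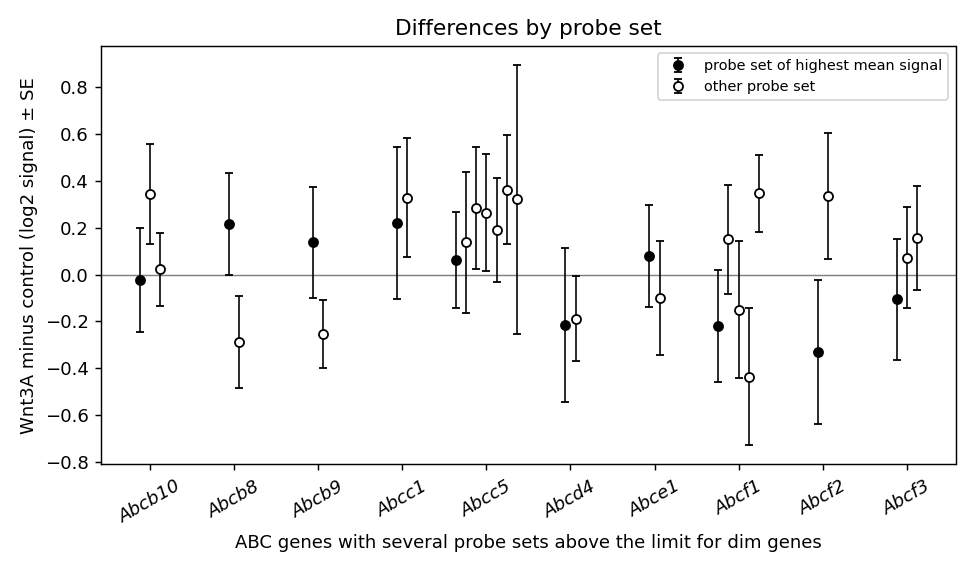
For each ABC gene with several probe sets above the limit for dim genes, the difference in log2 signal (Wnt3A minus control) is plotted with its SE in limma (n = 2 arrays per group), filled for the probe set of highest mean signal and open for the others. In 7 of the 10 genes the probe sets lie on both sides of 0, while in Abcc5, Abcc1 and Abcd4 they lie on the same side.

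In subfamily G 4 of 6 genes were tested, and none differed by 0.5. Abcg8, which pairs with Abcg5 to export sterols into bile, was at 3.07 and 3.57 in Wnt3A cells, against 3.72 and 3.60 in control cells. Its groups did not overlap, and the difference was -0.34 (SE 0.24, 95% interval -0.97 to 0.29, limma's adjusted p = 0.929). It was -0.020 with overlapping groups after scaling to hybridization controls, the groups also overlapped after median centring, and it was -0.093 without Wnt3A replicate 1 and -0.59 without Wnt3A replicate 2. The partner gene Abcg5, next to it on chromosome 17, was under the limit on every array. Abcg1, which passes cholesterol to high-density lipoprotein, read 2.35 and 1.98 in Wnt3A cells, against 2.41 and 2.16 in control cells, with 1 array of each group under the limit and a difference of -0.12 (SE 0.20). Abcg2, a drug exporter known as a marker of side-population stem cells, read 6.92 and 7.05 in Wnt3A cells, against 6.84 and 7.30 in control cells, a difference of -0.09 (SE 0.24, 95% interval -0.73 to 0.55). Abcg4, a sterol transporter gene of the brain, differed by -0.03 (SE 0.23). The differences of Abcg1, Abcg2 and Abcg4 were above 0 after scaling to hybridization controls, at 0.20, 0.23 and 0.29. Abcg3 was under the limit on every array.

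The 12 untested genes read between 0.93 and 2.27 on the arrays, 10 of them under the limit on all 4, and differed by -0.10 to 0.26. Nearest to the limit of 2.18 in mean signal were Abcg1 (2.22) and Abcb1a (2.28) on the tested side and Abcb11 (2.11) and Abca2 (2.10) on the other. The table gives no detection calls, so signals near the limit could not be told from background.

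Partners of these transporters were read from lists, and 0 members of any list passed an adjusted p of 0.05 in limma. Among 18 tested genes of sterol efflux and the sterol receptor LXR, which controls Abca1 and Abcg1, 1 was higher and 4 were lower at an unadjusted p under 0.05 (2.46% and 3.22% of all tested genes), with a median of -0.14. The higher gene was Ch25h, the enzyme that makes 25-hydroxycholesterol, at 6.57 and 5.05 in Wnt3A cells against 2.77 and 3.17 in control cells (difference 2.84, SE 0.55). Apoc1, an apolipoprotein gene, lay at 2.67 and 2.53 in Wnt3A cells and at 6.75 and 4.68 in control cells (difference -3.11, SE 0.70). Lpl, the lipase already given among the adipocyte markers, is on this list too. Among 15 genes of sterol synthesis and uptake, 11 were higher and 4 lower (median 0.31), and 2 were higher at an unadjusted p under 0.05. These were the synthesis enzymes Msmo1, with a difference of 1.76 (SE 0.24), and Cyp51, with 1.43 (SE 0.26), both without overlap between groups; Lss followed with 0.57.

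Of 17 tested genes of xenobiotic and glutathione defence, which supplies substrates to Abcc1, 10 were higher and 7 lower. At an unadjusted p under 0.05, which 2.46% of all tested genes passed as higher and 3.22% as lower, 3 were higher and 0 lower, namely the glutathione transferase gene Gsta2 (2.08), the cystine carrier gene Slc7a11 (1.37) and Ahr, the aryl hydrocarbon receptor (1.53), each without overlap between groups. In the cobalamin list 1 of 9 was lower at that level (3.22% of all tested genes), Cd320, the receptor that takes cobalamin into cells, at 5.64 and 5.57 in Wnt3A cells against 6.50 and 6.59 in control cells. This difference of -0.94 (SE 0.20) was larger than the spread between replicates, with an adjusted p of 0.572 in limma. None of 15 peroxisome genes, 19 of haem and iron-sulphur clusters, 16 of ribosome recycling and initiation or 9 of peptide loading reached an unadjusted p of 0.05, and their medians were -0.16, -0.12, -0.01 and -0.0023. Lowest in p were Scp2 (-0.51), Cpox (0.52), Eif2ak4 (-0.44) and Erap1 (-0.62). The ABC genes Tap1 and Tap2, whose symbols fall outside the rule and which pump peptides for MHC class I, differed by -0.15 (SE 0.14) and 0.05 (SE 0.18), and Cftr was under the limit.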

How the data were processed

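Biotin-labelled RNA was measured on 4 Affymetrix arrays. The authors deposited a table of signals by probe set, read here as log2 because they run from 0.50 to 13.23; neither base nor normalization is stated in the sources used here. The submitters' processing notes name GCOS and PLIER without a role. The protocol text names Wnt3A for all samples, so groups came from the titles and the treatment label. Of 22690 probe sets, 20380 had 1 symbol in the platform annotation, 691 had several and were not named, 64 were controls and 1555 were not listed. Of the 20380 probe sets with 1 symbol, 20351 were matched by Entrez ID to a RefSeq gene and took its symbol. Of 216 list entries 194 were on the array.

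The fit used limma 3.58.1 in R 4.3.3 (lmFit, then eBayes with trend; group as the only term; two-sided; 4.68 degrees of freedom) and Benjamini-Hochberg adjustment over all 9295 tested genes. The same fit was also run on simulated data drawn from the means and SEs of the real fit, with outcomes not reported here. Members, lists and motifs were chosen with earlier results of these data known, and lists get no test. Arrays are described for the 3 members per subfamily of lowest p, for those 2-fold apart without overlap, and for a few members named in any case, some of which are not reported here. Up to 3 genes of lowest p are named per list. Remaining marker lists were endothelial (1 of 2 tested genes lower, 1 higher) and epithelial (2 of 3 lower, 1 higher). Promoter windows are RefSeq's (GRCm38.p6). Alternatives were other normalizations, filters, probe set rules and moderation, the replicate number as a block, and leaving out single arrays.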

Additional observations from a re-analysis of the deposited data

How the results depend on the processing

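No call was made in the values as deposited (0 genes by limma, 528 or 5.68% at an unadjusted p under 0.05), with 2 arrays per group. The part of the number of arrays and of signals near the limit for dim genes in this was not tested. With a replicate block, 83 genes (0.893% of all tested) passed the threshold, 2 of them ABC genes (Abca8a, adjusted p 0.0035, and Abca8b, adjusted p 0.033 in limma). In that fit 5 ABC genes had an unadjusted p under 0.05 in limma. The share of all tested genes at that level in that fit is not given, so this count has no background to be read against. The call of Abca8a rests in part on a Wnt3A signal under the limit for dim genes. Deviations of same-numbered arrays correlated at 0.48, with only 2 pairs and no label that pairs them. Scaling to hybridization controls called 49 genes and 1 ABC gene, gave a median of 0.26 over ABC genes and subfamily medians of -0.90 (A), 0.53 (B), 0.46 (C), 0.053 (D), 0.40 (E), 0.10 (F) and 0.21 (G), and turned Abca7 (0.0067), Abcb10 (0.30), Abcd3 (0.0027), Abcd4 (0.10), Abcf1 (0.10), Abcf3 (0.21), Abcg1 (0.20), Abcg2 (0.23) and Abcg4 (0.29) above 0. The spiked control signal was lower on both Wnt3A arrays than on both control arrays and lowest on Wnt3A replicate 2, and scaling without that array was not tested. Quantile normalization turned Abcb10 above 0 (0.0030). The subfamily A median was -0.31 with no filter, where the genes added are dim. Leaving out the dimmer 50% called 1 gene. It left 0 ABC genes at an unadjusted p under 0.05 and 3 with groups apart, because Abca8a, Abca8b and other dim genes leave the test. Shares of all genes in that setting are not given, so these counts have no background to be read against. The subfamily A median there was -0.77. With the mean of probe sets, the filter was drawn anew on these means, so the genes tested were not the same. The subfamily A median was then -0.38, and Abcb10 (0.11), Abcb8 (-0.037), Abcb9 (-0.034), Abce1 (-0.010), Abcf2 (0.0023) and Abcf3 (0.041) changed sign. Single other probe sets reversed Abcb10 (0.34 and 0.022), Abcb8 (-0.29), Abcb9 (-0.25), Abce1 (-0.10), Abcf1 (0.15 and 0.35), Abcf2 (0.33) and Abcf3 (0.071 and 0.16).

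Without single arrays, 2 to 5 ABC genes had an unadjusted p under 0.05 and 15 to 17 had groups apart, which 1 array against 2 meets more easily. Subfamily medians ran from -1.94 to -0.22 (A), 0.012 to 0.34 (B), -0.030 to 0.32 (C), -0.53 to -0.0060 (D), -0.092 to 0.25 (E), -0.44 to 0.0021 (F) and -0.18 to -0.057 (G). Signs turned for Abca1 (-3.42 to 0.98), Abca7 (-0.66 to 0.038), Abcb10 (-0.10 to 0.051), Abcb1a (-0.63 to 1.91), Abcb6 (-0.38 to 0.62), Abcb9 (-0.024 to 0.30), Abcc1 (-0.14 to 0.58), Abcd4 (-0.59 to 0.16), Abce1 (-0.092 to 0.25), Abcf1 (-0.44 to 0.0021), Abcf3 (-0.32 to 0.11), Abcg1 (-0.31 to 0.062), Abcg2 (-0.32 to 0.14) and Abcg4 (-0.20 to 0.15). Except where given as the construction of an alternative, the cause was not tested. Of the 24 ABC genes 10 kept their sign without any single array. In all settings in which they were tested 7 did, but 6 of these 7 were not tested with the dimmer 50% left out. Among the 10, sizes moved by over 1.5 times for Abca3 (0.42 to 1.03), Abcb1b (0.31 to 1.0), Abcb4 (0.057 to 0.59), Abcd3 (-0.46 to -0.17), Abcf2 (-0.64 to -0.024) and Abcg8 (-0.59 to -0.093). Raising signals under the dim limit to it, chosen after seeing the data, gave -3.69 for Abca8a.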
